A study of Mus musculus with 9 samples.

Results

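The PYHIN or p200 family was described by 9 member genes, Ifi202b, Ifi203, Ifi204, Ifi205, Ifi207, Ifi209, Ifi211, Ifi213 and Aim2, out of 22180 genes tested, in dendritic cells (DCs) that lacked or kept the transcription factor C/EBPβ. The family was selected on the log2 differences between knockout and control in these same 9 samples, in which Ifi204 had been seen to be higher, and so those differences are given as a description and without a p-value of their own. A probe, which on these arrays summarises many short oligonucleotides of a transcript, was taken as a member's where its gene annotation held the member's symbol. That gave 9 member probes. On 7 of them the member was the only symbol, and the other 2 carried several symbols and are described apart.

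The knockout group had 3 samples, C/EBPβ-/- DCs from CD11c.Cre x C/EBPβflox/flox mice, in which the CD11c promoter drives a Cre recombinase that removes Cebpb in CD11c-expressing cells. The control group had 6 samples, C/EBPβ+/+ DCs, for which C57BL/6 and CD11c.Cre mice are named as sources with no statement of which sample came from which. All 9 samples were CD11c+MHCclassII+ cells sorted from the spleen of naive mice on the C57BL/6 background, and no source used here states the ages of the mice. CD11c is also carried by some macrophages, monocytes and lymphocytes, so neither the sort gate nor the Cre is restricted to DCs.

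PYHIN proteins pair a pyrin domain, a protein interaction module, with 1 or more HIN domains, which bind DNA. Aim2 binds DNA in the cytosol and assembles an inflammasome with the adaptor encoded by Pycard and the protease caspase-1. Mouse p204, the product of Ifi204, has been linked to sensing of DNA upstream of the adaptor STING and to macrophage differentiation, and p202, the product of Ifi202b, lacks a pyrin domain and restrains Aim2. The genes lie side by side in a cluster on chromosome 1, many are induced by interferon, and the cluster has expanded by duplication in the mouse, so that several genes are close copies of each other.

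The annotated start regions are shown because the family arose by duplication and many of its genes respond to interferon, so both likeness between copies and interferon-type motifs can be read there. RefSeq windows of 300 bases (build GRCm38.p6, 250 bases before and 50 after an annotated gene start) were matched by symbol for 8 of the 9 members, not for Ifi204, and for 4 family genes outside the members (Ifi206, Ifi208, Ifi214 and Mndal). The 12 genes had 14 windows, since Mndal and Ifi203 had more than 1 annotated start. Printed first are the windows of Ifi207 (chr1:173741760-173742059, minus strand), Ifi211 (chr1:173912997-173913296, minus strand) and the first start of Mndal (chr1:173880138-173880437, minus strand), on whose probes every knockout was above every control (for Ifi211, on a probe shared with Ifi204, by 0.00075). Then come those of Aim2 (chr1:173420354-173420653, plus strand) and Ifi205 (chr1:174031706-174032005, minus strand), whose probes overlapped between the groups. Capitals mark the letters GAAANNGAA or their reverse complement, a core of interferon-stimulated response elements (ISRE).
Ifi207: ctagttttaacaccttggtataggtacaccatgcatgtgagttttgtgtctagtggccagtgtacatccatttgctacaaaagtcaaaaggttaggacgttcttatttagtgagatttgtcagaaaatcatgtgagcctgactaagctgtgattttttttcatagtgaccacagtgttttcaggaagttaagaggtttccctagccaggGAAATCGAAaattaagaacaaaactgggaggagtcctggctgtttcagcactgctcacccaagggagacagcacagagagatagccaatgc
Ifi211: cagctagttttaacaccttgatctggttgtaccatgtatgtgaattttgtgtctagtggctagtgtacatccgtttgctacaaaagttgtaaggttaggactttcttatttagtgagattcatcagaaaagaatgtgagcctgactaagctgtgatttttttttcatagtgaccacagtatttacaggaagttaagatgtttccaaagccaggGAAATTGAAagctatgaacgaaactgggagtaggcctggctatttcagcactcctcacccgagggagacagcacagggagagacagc
Mndal: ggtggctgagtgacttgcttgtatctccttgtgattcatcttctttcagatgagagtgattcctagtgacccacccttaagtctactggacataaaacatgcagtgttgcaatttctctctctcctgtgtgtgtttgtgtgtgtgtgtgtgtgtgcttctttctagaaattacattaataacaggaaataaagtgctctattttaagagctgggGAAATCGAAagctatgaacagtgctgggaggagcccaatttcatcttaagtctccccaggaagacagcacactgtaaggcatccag
Aim2: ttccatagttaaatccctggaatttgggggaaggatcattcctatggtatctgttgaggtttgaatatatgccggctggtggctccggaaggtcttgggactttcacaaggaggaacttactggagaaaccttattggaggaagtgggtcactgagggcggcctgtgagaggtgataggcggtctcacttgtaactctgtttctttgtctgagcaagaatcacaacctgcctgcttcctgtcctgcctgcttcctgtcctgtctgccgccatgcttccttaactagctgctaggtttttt
Ifi205: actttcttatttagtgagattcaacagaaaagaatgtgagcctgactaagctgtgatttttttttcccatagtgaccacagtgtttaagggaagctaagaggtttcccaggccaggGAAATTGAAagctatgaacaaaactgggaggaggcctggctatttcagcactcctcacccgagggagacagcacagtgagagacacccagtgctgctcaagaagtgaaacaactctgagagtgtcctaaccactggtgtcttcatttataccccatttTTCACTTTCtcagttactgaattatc

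The ISRE-type core GAAANNGAA, searched on both strands, was found in 10 of the 14 windows, in 9 of the 12 genes, against 8.56% of all 32851 windows in the table. In Ifi207, Ifi211 and the first window of Mndal it started 41, 37 and 36 bases before the gene start. It lay as near in the second window of Ifi203, at 35 bases, and in Ifi206, at 40 bases, and farther off in Ifi208, Ifi213 and Ifi214, at 58, 73 and 79 bases. The probes of Ifi203, which carried several symbols, and of Ifi208, Ifi213 and Ifi214 overlapped between the groups. Those of Ifi208 (2.37 to 2.95) and Ifi214 (3.63 to 4.43) were dim in all samples, so their overlap says little. Whether the core bears on the differences was not tested. The Ifi205 window held it 134 bases before the start and again 25 bases after it on the opposite strand. The windows of Aim2, Ifi209 and Ifi202b and the first window of Ifi203 held no match to it. A core of C/EBP sites, TTGCNNAA, was found in 6 of the 14 windows against 10.8% of all windows, in Ifi206, Ifi208, Ifi209, Ifi213, Ifi214 and the second window of Mndal. It was in none of the 5 windows printed above. A GAS core, TTCNNNGAA, bound by STAT factors, was found in the Ifi202b window alone (8.3% of all windows), and the PU.1 core GAGGAAGT in the Aim2 window alone (3.2% of all windows). In the first window of each gene, aligned end to end, Ifi207 and Ifi211 shared 85.9% of aligned columns, Ifi208 and Ifi213 89.5%, and Ifi209 and Ifi214 95.3%. The last pair differed within the ISRE-type core, by the substitution G1T from Ifi214 to Ifi209, counted from 1 at the 5′ end of the core. The stretch is shown for both genes (bases 158 to 194 of the window, Ifi214 at chr1:173535908-173536207, minus strand, and Ifi209 at chr1:173630609-173630908, plus strand), with the aligned positions of the core in capitals.
Ifi214: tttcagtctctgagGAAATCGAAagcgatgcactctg
Ifi209: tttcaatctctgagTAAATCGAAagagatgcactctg
These matches describe letters in the windows and not occupied sites.

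**Figure D1:**
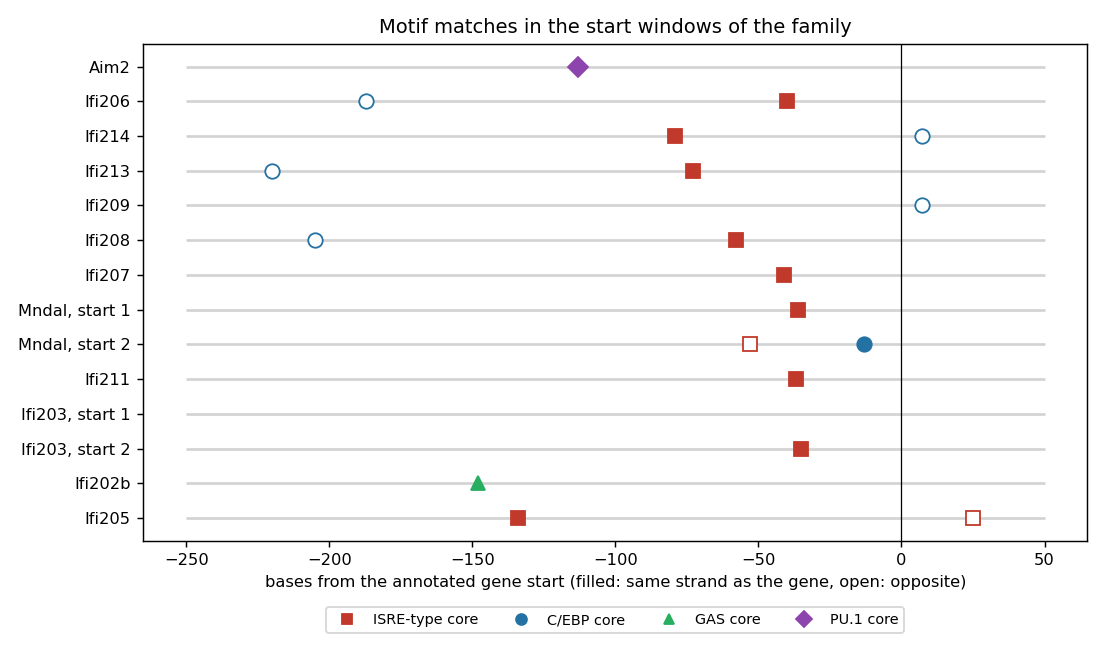
Motif matches in the 14 RefSeq start windows of 12 PYHIN family genes, plotted as bases from the annotated start, with filled symbols on the strand of the gene and open symbols on the opposite strand. The ISRE-type core lay 41, 37 and 36 bases before the start in Ifi207, Ifi211 and the first window of Mndal. It lay at 35 bases in the second window of Ifi203 and at 58, 73 and 79 bases in Ifi208, Ifi213 and Ifi214. The probes of Ifi203 (several symbols), Ifi208 and Ifi214 (both dim) and Ifi213 overlapped between the groups.

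The arrays and the deletion were checked first. The medians of the 9 arrays were 5.49 to 5.56 on the log2 scale, and any 2 arrays correlated at 0.987 to 0.996 across probes. Cebpb had log2 intensities of 5.37 to 5.60 in the knockouts and 6.64 to 7.15 in the controls, a difference of -1.35 (SE 0.11, limma's adjusted p = 0.00074, exact two-sided permutation p = 0.012, the smallest that the design allows). The DC genes H2-Ab1 (13.7 in both groups) and H2-Aa (13.3 in the knockouts and 13.2 in the controls), which encode MHC class II chains, were bright throughout. Of 11 marker lists for DC subsets and other spleen cells, 9 had no gene past an adjusted p of 0.05, while the cDC2 list had Cd209a and Mgl2 and the monocyte list had Ace, all 3 higher in the knockouts. The cDC2 list did not go one way, since 5 of its 9 genes had a negative difference, with a median of -0.066. Every knockout was above every control for 3 of the 9, beside 2.52% of all genes, and below every control for 1, beside 4.88%. That 1 was Clec4a4, which encodes the DC receptor DCIR2 (-0.30, limma's adjusted p = 0.12), named after its value was seen. Bulk RNA cannot tell a larger share of a cell type from more RNA per cell.

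Among the members, Ifi204 and its neighbour Ifi207 were higher in the knockouts. Aim2, slightly lower in its mean, overlapped between the groups, as did Ifi205, Ifi209, Ifi213 and Ifi202b. Of the 7 members on probes of 1 symbol, 4 had a positive and 3 a negative difference, with a median of 0.093, beside a median of -0.014 over all genes tested. In the limma fit over all genes, 2 of the 7 had an adjusted p under 0.05, Ifi204 and Ifi207, both higher in the knockouts. Of all genes 0.906% were called in either direction and 0.415% were called higher, and nothing is read from the members' count, since the family was taken up with this contrast known. With 1 sample left out, the count fell to 0 where that sample was knockout replicate 2 or control replicate 1, 4 or 6, and to 1 where it was knockout replicate 1 or 3 or control replicate 3 or 5. Every knockout lay above every control for 2 of the 7 members, as for 2.52% of all genes, and every knockout lay below every control for 0 of the 7, as for 4.88% of all genes.

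**Figure D2:**
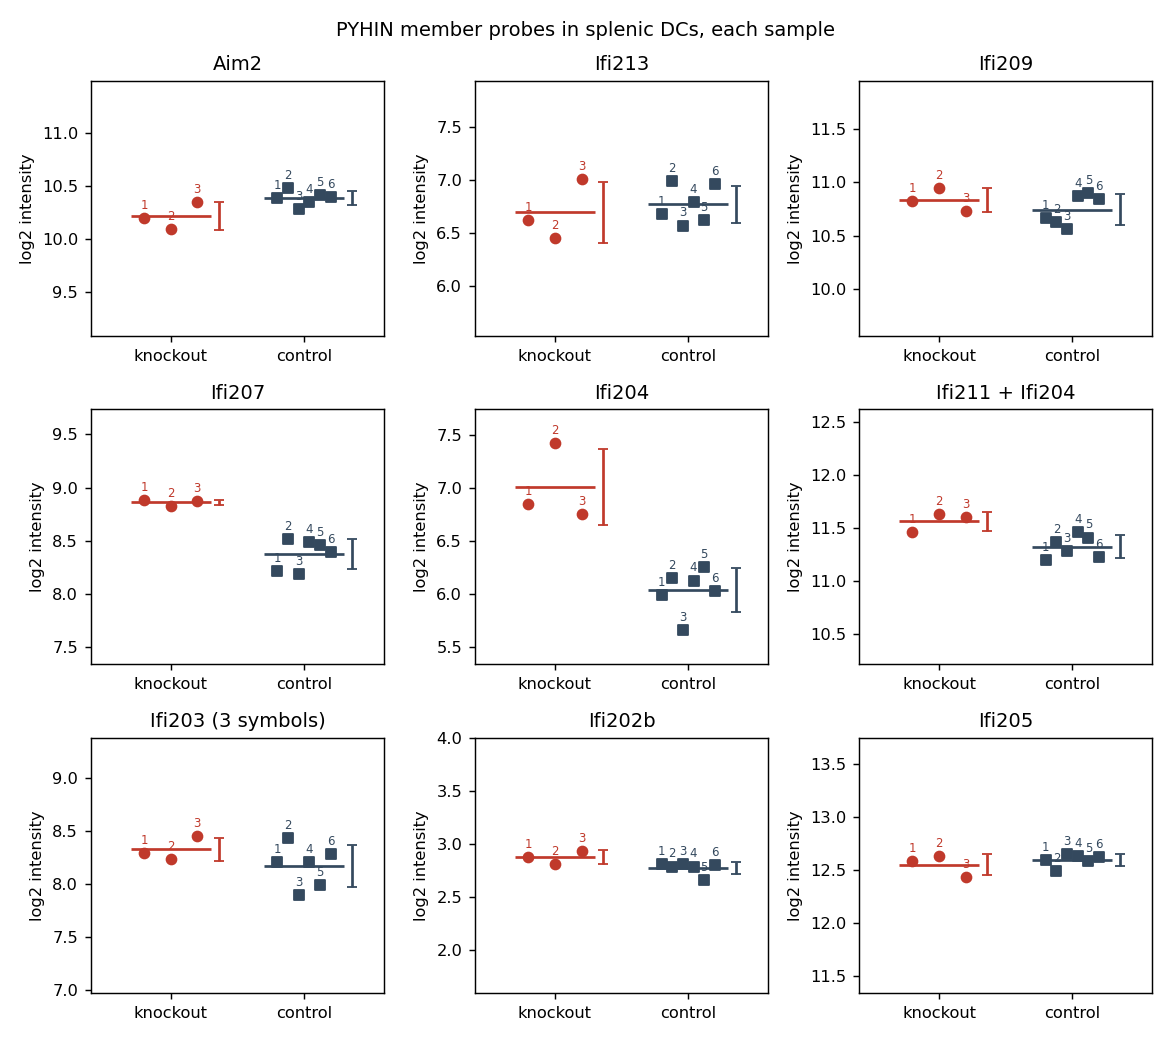
Log2 intensity of the 9 member probes in each sample, knockout (red circles, n = 3) and control (blue squares, n = 6), with replicate numbers, the group mean (line) and SD (bar). Every panel spans the same range of log2 units. Ifi204 and Ifi207 show no overlap between the groups, and on the Ifi211 and Ifi204 probe the lowest knockout and the highest control are both 11.46 to 2 decimals.

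Ifi204 encodes p204, a cytosolic and nuclear DNA-binding protein. Its log2 intensity was 6.85, 7.42 and 6.76 in knockout replicates 1 to 3, against 5.99, 6.15, 5.66, 6.13, 6.26 and 6.03 in control replicates 1 to 6. Knockout replicate 2 was the highest of all samples and control replicate 3 the lowest, and the groups were separated by 0.50. The mean was 7.01 ± 0.36 (SD, n = 3) in the knockouts and 6.04 ± 0.21 (SD, n = 6) in the controls, a difference of 0.97 (SE 0.156) or 1.96-fold. Over 18 alternative settings this difference was 0.77 to 1.12.

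Ifi207, the next gene of the cluster, encodes a PYHIN protein with a pyrin and a HIN domain. The knockouts had 8.88, 8.83 and 8.87, against 8.21, 8.52, 8.19, 8.49, 8.46 and 8.39 in control replicates 1 to 6. The 3 knockouts were nearly equal (SD 0.027), and the nearest control, replicate 2, was 0.31 below them. The mean was 8.86 in the knockouts and 8.38 ± 0.14 (SD, n = 6) in the controls, a difference of 0.48 (SE 0.085) or 1.40-fold. Over the same settings it was 0.41 to 0.55.

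Ifi211 was read only by a probe that also carries the symbol Ifi204, so its signal cannot be assigned to either gene. That probe had 11.46, 11.63 and 11.60 in knockout replicates 1 to 3, against 11.20, 11.37, 11.28, 11.46, 11.41 and 11.23 in the controls. Every knockout was above every control, but knockout replicate 1 exceeded control replicate 4 by only 0.00075. The difference was 0.24 (SE 0.076), smaller than that of the probe annotated with Ifi204 alone. Ifi203, which encodes another interferon-inducible member, was read by a probe shared with the pseudogene Ifi203-ps and a further locus. It had 8.29, 8.24 and 8.45 in the knockouts and 7.90 to 8.43, with a median of 8.21, in the controls, a difference of 0.16 (SE 0.113). Only knockout replicate 3 was above all controls on that probe. The authors' summary of oligonucleotides that match several copies can mix their signals on either probe. Whether oligonucleotides of the probes of 1 symbol also match other copies was not examined.

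Aim2, the inflammasome sensor, had 10.20, 10.09 and 10.35 in the 3 knockouts, while the controls spanned 10.28 to 10.48 with a median of 10.38. Knockout replicates 1 and 2 were below all controls and knockout replicate 3 was within their range. The difference was -0.17 (SE 0.07), and it was between -0.24 and -0.11 in the 18 alternative settings. Ifi205, a transcript known to be abundant in the cDC1 subset of DCs, differed by -0.044 (SE 0.061), with 12.59, 12.63 and 12.44 in the knockouts and 12.49 to 12.65 in the controls. Knockout replicates 1 and 2 were within the range of the controls and knockout replicate 3 was below it. Ifi213, in the part of the cluster next to Aim2, differed by -0.075 (SE 0.131), with 6.62, 6.45 and 7.01 in the knockouts and 6.57 to 6.99 in the controls. Knockout replicate 2 was the lowest and knockout replicate 3 the highest of the 9 samples for this gene.

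Ifi209, also named Pyhin1, encodes a member with a pyrin and a HIN domain. Its probe had 10.83, 10.95 and 10.73 in knockout replicates 1 to 3, against 10.67, 10.63, 10.56, 10.87, 10.90 and 10.84 in control replicates 1 to 6, a difference of 0.093 (SE 0.09). Leaving out knockout replicate 2 gave 0.036 and leaving out knockout replicate 3 gave 0.147. The difference ranged over -0.033 to 0.22 in the 18 alternative settings, with -0.033 against control replicates 4 to 6 alone and 0.22 against control replicates 1 to 3 alone. Control replicates 4 to 6 were all above control replicates 1 to 3, and the knockouts overlapped with the higher 3. Ifi209 was the only one of the 9 member probes on which these control replicates did not overlap, as they did not for 16.2% of all genes. The labels give no property that separates the 2 sets of controls. Ifi202b, which is known to differ in expression between mouse strains and to be low in C57BL/6 mice, was dim in both groups. It had 2.88, 2.81 and 2.94 in the knockouts and 2.66 to 2.81 in the controls, below the median of each array, and a difference of 0.10 (SE 0.058). How much of such a level is background was not measured, so no statement is made on whether Ifi202b is expressed.

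The family genes outside the members were read in the same fit. Mndal, which lies between Ifi204 and Ifi211, had 8.79, 8.89 and 9.13 in knockout replicates 1 to 3, against 8.38, 8.61, 8.49, 8.65, 8.53 and 8.72 in the controls. Every knockout was above every control, by 0.06 at the nearest, and the difference of 0.37 (SE 0.09) did not pass (limma's adjusted p = 0.092). Over 18 alternative settings its adjusted p in limma was 0.043 to 0.41, and it was under 0.05 in 1 of them. Ifi208 (0.15, adjusted p = 0.61), Ifi214 (-7.7e-05, adjusted p = 1) and the pseudogene Ifi203-ps (0.19, adjusted p = 0.65) did not pass, and their groups overlapped. Along the chromosome, the 4 probes on which every knockout exceeded every control read Ifi207, Ifi204, Mndal and, by only 0.00075, Ifi211 with Ifi204, with Ifi203-ps among them. They were 4 of 13 family probes, beside 2.52% of all genes, and nothing is read from that count. Outside the cluster, the nearest measured protein-coding genes other than olfactory receptors did not pass either. Cadm3, an adhesion molecule gene, differed by -0.28 (adjusted p = 0.14), Ackr1, an atypical chemokine receptor gene, by -0.23 (adjusted p = 0.57), Mptx2 by 0.38 (adjusted p = 0.31) and Fcer1a, the alpha chain of the IgE receptor, by 0.16 (adjusted p = 0.40). On the far side, Mptx1 differed by -0.054 and Fmn2 by 0.073.

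**Figure D3:**
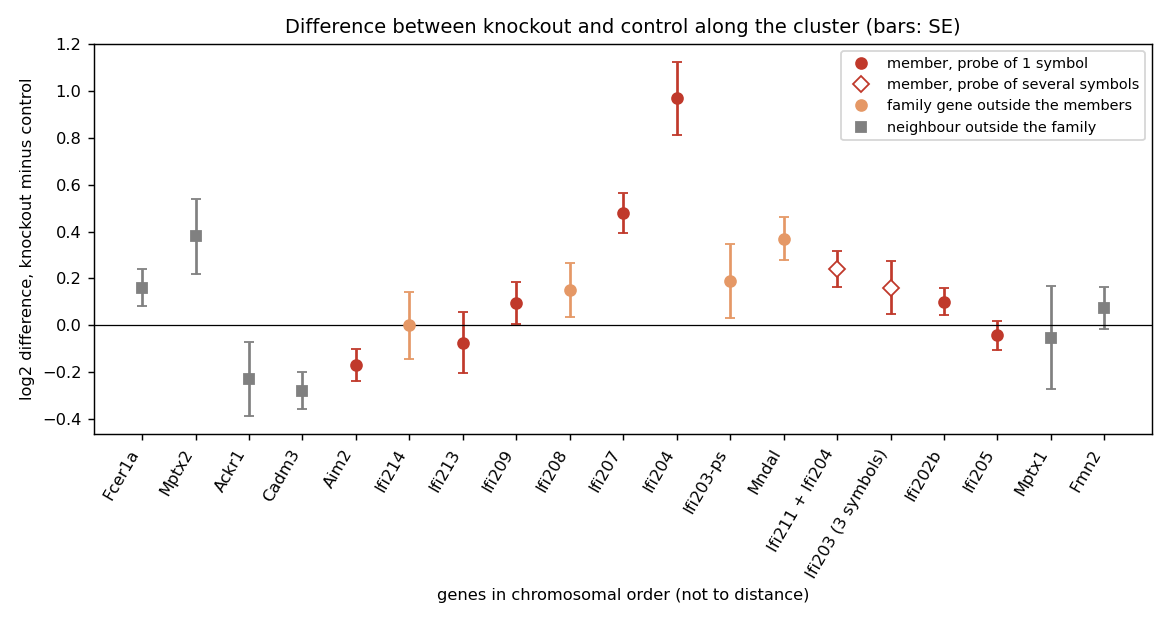
Log2 difference between knockout and control (3 and 6 samples, bars are limma's SE) for 13 PYHIN family probes and 6 flanking genes in chromosomal order, not drawn to distance. Ifi204 (0.97), Ifi207 (0.48) and Mndal (0.37) lie near each other, while Aim2 (-0.17) and Ifi205 (-0.044) lie at the ends of the family.

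Averaged over the 7 members, the deviation from the control mean was 0.167, 0.214 and 0.203 for the 3 knockouts and lay between -0.138 and 0.053 for the 6 controls. That mean was carried by Ifi204 and Ifi207, whose differences were known when the family was selected. The other 5 members averaged -0.03, -0.068 and 0.041 in the knockouts, within the -0.08 to 0.069 of the controls. On the mean of all 7, control replicate 3 was the lowest, and Ifi204, Ifi207 and Ifi209 each had their lowest value in it. The marker lists of monocytes, red pulp macrophages, B cells and plasmacytoid DCs had median differences of 0.212, 0.577, 0.29 and 0.225. The other marker lists had medians of -0.066 to 0.048. Among the marker lists, only that of monocytes had a mean above all controls in every knockout. As a deviation from the control mean, the mean of 15 monocyte markers was 0.187, 0.228 and 0.406 in knockout replicates 1 to 3 and -0.194 to 0.096 in the controls. Its mean log2 levels were 8.73 to 8.95 in the knockouts and 8.35 to 8.64 in the controls. Of these markers 1 of 15 passed by limma, beside 0.906% of all genes. It was Ace (1.16, SE 0.15, limma's adjusted p = 0.0096), a marker of non-classical monocytes that macrophages also express. Above every control in every knockout were 4 of 15, beside 2.52% of all genes, and 0 were below, beside 4.88%. The 4 were Ace and, named after their values were seen, Fcgr1 (0.80), Fcgr4 (0.78) and Csf1r (0.37). The last 3 did not pass by limma. An unadjusted p under 0.05 was found for 6 of the 15, beside 14.3% of all genes, and 4 of the 15 had a negative difference. The most abundant markers of that list, Nr4a1 (0.12) and Lyz2 (0.21), did not pass. The mean of 14 red pulp macrophage markers was 0.194, 0.732 and 0.602 in knockout replicates 1 to 3 and -0.552 to 0.572 in the controls, so the groups overlapped, with mean log2 levels of 8.56 to 9.10 in the knockouts and 7.82 to 8.94 in the controls. None of the 14 passed by limma (8 had an unadjusted p under 0.05, beside 14.3% of all genes). For 3 of them every knockout was above every control, beside 2.52% of all genes. Control replicate 3 had the lowest macrophage mean and the lowest Ifi204. Control replicate 2, at 0.572 for the macrophage mean, had 6.15 for Ifi204, while knockout replicate 1, at 0.194, had 6.85. The mean of 9 B cell markers was 0.206, -0.165 and 0.947 in knockout replicates 1 to 3 and -0.061 to 0.145 in the controls, so knockout replicate 3 stood apart, and its Ifi204 was the lowest of the knockouts. The part of monocytes, macrophages, B cells and plasmacytoid DCs in the higher Ifi204 and Ifi207 was not tested.

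**Figure D4:**
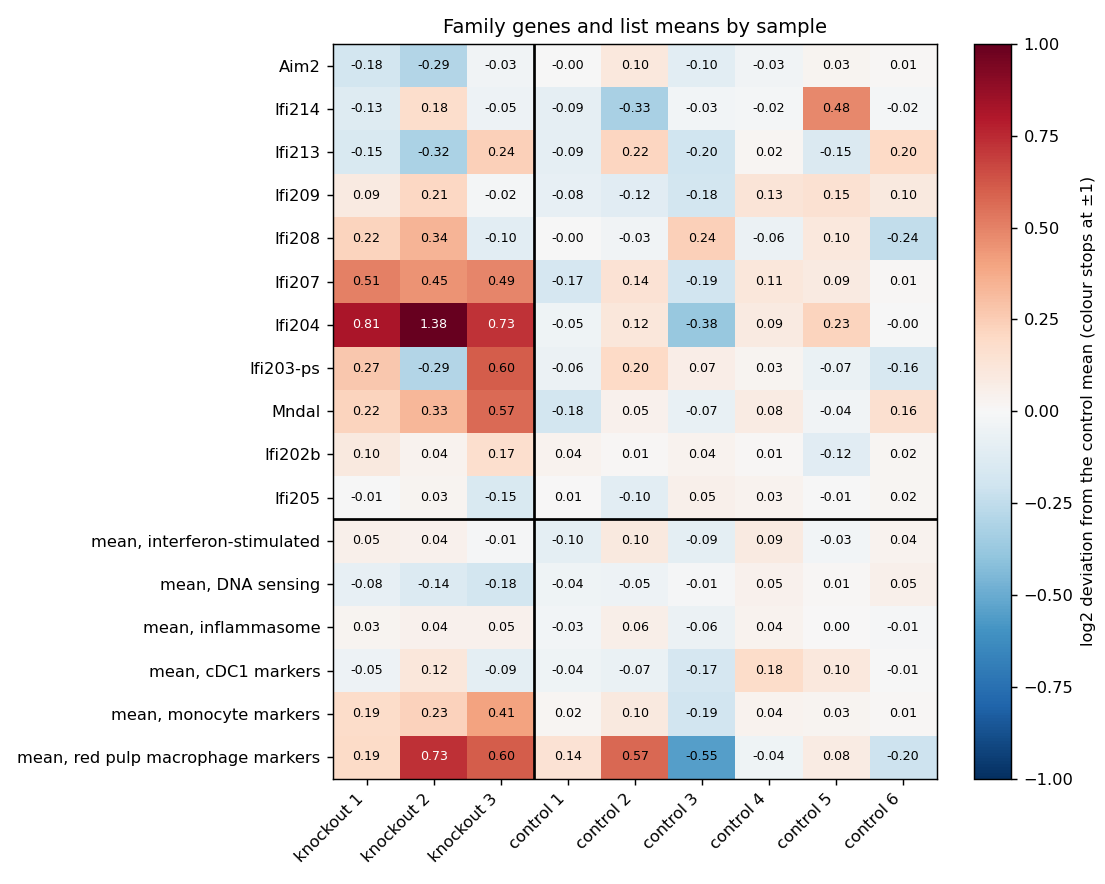
Log2 deviation from the control mean in each sample, knockouts left of the line, for 11 family genes on probes of 1 symbol in chromosomal order and for the means of 6 gene lists. Ifi204 and Ifi207 are positive in all 3 knockouts, the monocyte mean is 0.187 to 0.406 there, and the interferon-stimulated mean stays between -0.015 and 0.052.

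Interferon-stimulated genes, the class to which many PYHIN genes belong, had differences on both sides of 0. Of 39 tested genes, 1 was higher and 0 were lower by limma, beside 0.906% of all genes called in either direction. A positive difference was found for 16 of the 39, and the median was -0.032 against -0.014 for all genes. An unadjusted p under 0.05 was found for 11 of the 39, beside 14.3% of all genes. In every knockout 5 were above and 4 below every control, beside 2.52% and 4.88% of all genes. The 1 gene was Rsad2, which encodes the antiviral enzyme viperin (0.57, SE 0.11, adjusted p = 0.048), with 8.27 to 8.49 in the knockouts and 7.45 to 7.98 in the controls. Its call was lost in 13 of 18 alternative settings, where adjusted p reached 0.34. Among those that did not pass were the chemokine Cxcl10 (0.65, adjusted p = 0.066) and the RNA sensor Ddx58 (-0.31, adjusted p = 0.052), both chosen after their values were seen. The mean of the 39 genes was 0.052, 0.044 and -0.015 in knockout replicates 1 to 3 and -0.098 to 0.097 in the controls, within which all 3 knockouts lay. Among 15 genes of interferons, their receptors and signalling, 0 passed by limma and 1 had an unadjusted p under 0.05, beside the same 14.3%. A positive difference was found for 11 of the 15, beside 9984 of 22180 for all genes, with a median of 0.048. Their mean was 0.082, 0.054 and 0.084 in knockout replicates 1 to 3, above the -0.047 to 0.041 of the controls. In every knockout 1 of the 15 was above every control, beside 2.52% of all genes, and 0 were below, beside 4.88%. Ifnar1, a chain of the type I interferon receptor, differed by 0.19 (adjusted p = 0.18) and Irf4, a transcription factor of cDC2 and lymphocytes, by 0.25 (adjusted p = 0.43).

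The list for DNA sensing, which also held genes of DNA break repair and is wider than the partners of the family, had mostly small negative differences. Of 21 genes, 19 had a negative difference, beside 12196 of 22180 for all genes, with a median of -0.136, and 0 passed by limma while 6 of 21 had an unadjusted p under 0.05, beside 14.3% of all genes. The mean of the list was -0.083, -0.139 and -0.18 in knockout replicates 1 to 3, below the -0.053 to 0.051 of the controls. Sting1, the adaptor downstream of p204 and cGAS, differed by -0.14 (SE 0.10, adjusted p = 0.56) and the sensor gene Cgas by -0.13 (SE 0.19, adjusted p = 0.83). Both are named for their role, after their values were seen. The smallest p-values belonged to Xrcc6, which encodes the DNA end-binding protein Ku70 (-0.38, SE 0.08, adjusted p = 0.052), and Mre11a, a nuclease subunit gene of DNA break repair (-0.34, SE 0.09, adjusted p = 0.11). Both were among 4 of the 21 genes with every knockout below every control, beside 4.88% of all genes. Xrcc6 had 6.47 to 6.77 in the knockouts and 6.93 to 7.16 in the controls.

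The inflammasome genes around Aim2 showed no called change. Of 20 genes, 0 passed by limma, 6 had an unadjusted p under 0.05 (14.3% of all genes), 9 had a positive difference (9984 of 22180 for all genes), and the median was -0.010. Pycard, the adaptor that Aim2 engages, differed by -0.20 (SE 0.10, adjusted p = 0.42), and Casp1, the protease it activates, by -0.011 (SE 0.09, adjusted p = 0.97). Gsdmd, the pore-forming effector of pyroptosis, differed by -0.0083 (SE 0.07), and these 3 were likewise named for their role. The smallest p-values were those of Il1a, an interleukin-1 gene (0.77, SE 0.19), and Mefv, the gene of pyrin (0.32, SE 0.08), each with an adjusted p of 0.094. Il1a had 6.74 to 6.88 in the knockouts, above all 6 controls at 5.32 to 6.47. In every knockout 2 of the 20 genes, Il1a and Mefv, were above every control, beside 2.52% of all genes. Below every control was 1 of the 20, beside 4.88% of all genes.

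**Figure D5:**
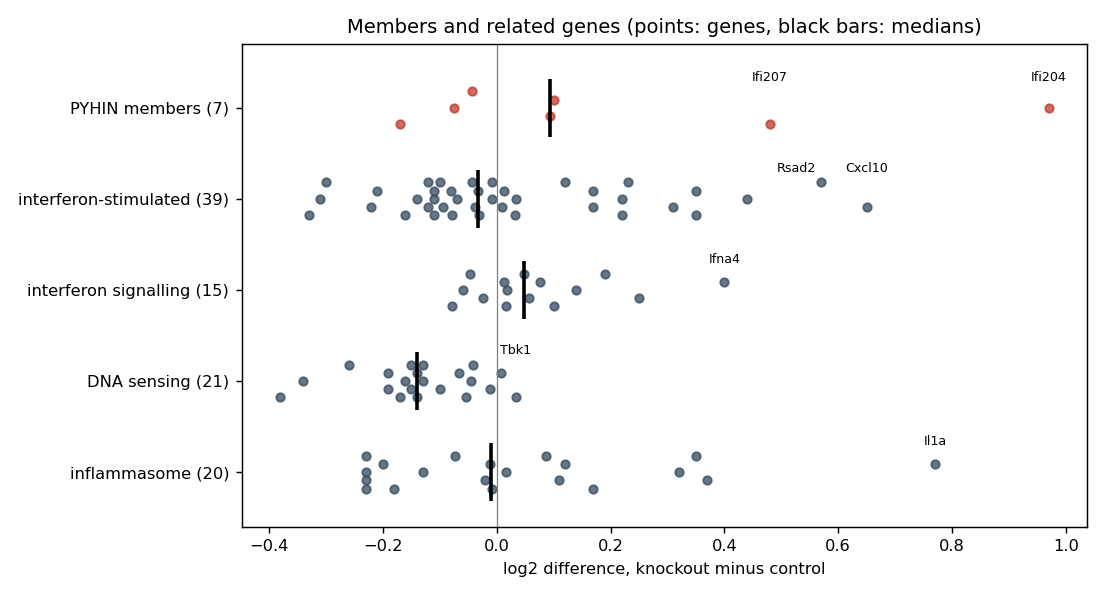
Log2 difference between knockout and control for the 7 PYHIN members on probes of 1 symbol and for 4 lists of related genes, each point a gene and each black bar a median. The medians are 0.093 for the members, -0.032 for interferon-stimulated, 0.048 for interferon signalling, -0.136 for DNA sensing and -0.010 for inflammasome genes.

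Genes outside the family whose values followed Ifi204 most closely over the 9 samples were found by the root mean square difference of their deviations from the control mean, among 22169 genes. They were Klrb1b, a lectin-like receptor gene (0.19), Plaur, the urokinase receptor (0.198), and the chemokine Ccl6, the adhesion molecule Vcam1 and the transcription factor Ets2 (0.222 each), against 0.607 for a flat line. Klrb1b had 7.33, 7.77 and 7.19 in the knockouts, highest in replicate 2 as Ifi204 was, and 6.45 to 6.77 in the controls. Vcam1, one of the red pulp macrophage markers, had 10.43, 10.88 and 10.51 in the knockouts and 9.07 to 10.33 in the controls, with its lowest value in control replicate 3 like Ifi204. The genes nearest to the mean of the 7 members were Cpne2 (0.037), Prkcd, a protein kinase C (0.04), Rab5a, a GTPase of early endosomes (0.043), Metap1 (0.043) and Impdh1 (0.044), against 0.127 for a flat line. This likeness is a ranking over all genes and carries no test.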

How the data were processed

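Total RNA of 9 samples was measured on single-channel arrays, 3 knockout and 6 control by the genotype in the labels. Each deposited value is a probe's log2 intensity; the authors used RMA, as named in the submitters' processing notes, and no source used here gives its version or a genome build. The log2 scale was read from the values. RMA's quantile step removes a shift shared by most genes. Of 41801 deposited rows, 34468 had values in all samples. Names came from the platform annotation: 23521 probes had 1 symbol, 1814 several and 9133 none.

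Genes were probes of 1 symbol, the brightest where there were several (1082 genes), with no filter on signal. Knockout and control were compared over 22180 genes with limma 3.58.1 in R 4.3.3 (lmFit, eBayes, two-sided, Benjamini-Hochberg, threshold 0.05), tested on simulated data. The 2 several-symbol probes took SE from the same fit over all probes. The RefSeq gene table gave names and, from its coordinates, the order of the cluster and the flanking genes. Python 3.11.15, pandas 2.3.3 and numpy 2.4.6 made the tables. The members and 16 gene lists were chosen with earlier results of these data known. Named genes were all family probes, Cebpb, up to 4 genes past 0.05 (or the 2 with the smallest p) of each related list, flanking genes, genes of like pattern, and markers past 0.05 or most abundant in lists that bear on a member. No label says whether replicates are separate animals, and the spread behind each p-value may be technical. Replicate numbers 1 to 3 occur in both groups but do not pair the samples. Depth does not apply to arrays, whose number limits the precision.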

Additional observations from a re-analysis of the deposited data

Results flagged for a closer look

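Of 31 sets of 6 control values examined (13 family probes, Cebpb and 17 list means), 4 held a sample set apart by Dixon's criterion, and chance marks about 1 in 20. Ifi202b was 2.663 in control replicate 5, below the other controls, on a dim probe. Ifi205 was 12.49 in control replicate 2, the lowest control. The monocyte marker mean was -0.194 in control replicate 3, relative to the control mean, the sample with the lowest Ifi204. The B cell marker mean was 0.145 in control replicate 1, the highest control.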

How the results depend on the processing

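Ifi204, Ifi207, Aim2 and Ifi202b kept the sign of their difference in the 18 alternatives, of which the comparisons with controls 1 to 3 or 4 to 6 alone were added after seeing the data (Ifi202b, dimmer than the median gene, had no value under the signal filter). Against controls 4 to 6 alone the difference of Ifi209, and with it the median member, became -0.033. With 1 sample left out, Ifi205 ran from -0.08 to 0.012 (positive without knockout replicate 3) and Ifi213 from -0.234 to 0.047 (positive without knockout replicate 2).

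The number of genes past 0.05 (201) was 652 with array weights, 537 among genes above the median gene, 125 after centring arrays, 20 and 3 against controls 4 to 6 and 1 to 3, 2 with a replicate block, and 33 to 333 with 1 sample left out. Members past 0.05 were 1 after centring, 0 against either set of controls or with the block, and 0 to 2 with 1 sample left out. Interferon-stimulated genes past 0.05 were 3 with array weights, 4 under the filter, 2 with trend and robust fitting or a second quantile normalization, 0 after centring, with the block or against either set of controls, and 0 to 1 with 1 sample left out. DNA sensing genes were 1 with array weights, trend and robust fitting, the filter or the second normalization, and inflammasome genes 2 with array weights or the filter; both were 0 to 1 with 1 sample left out. The member median was 0.047 to 0.104 with 1 sample left out. Cebpb was -1.41 to -1.28 with 1 sample left out, and -1.47 with the block (adjusted p = 0.14). Replicate numbers 4 to 6 occur only among the controls, so the block took up those samples. Differences with the block therefore equalled those against controls 1 to 3 alone (Cebpb -1.47 in both). Beyond that, the cause of these changes was not tested. Same-numbered samples deviated with correlations of -0.165, -0.098 and 0.05, so the numbers were not taken as pairs.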
